A study of Mus musculus with 48 samples.

Results

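Hypothalamus libraries numbered 1 in their titles were compared with those numbered 13 in the same 8 experimental series, 16 of the 48 libraries of a mouse RNA-seq study. The members were the 8 libraries of each number, joined in pairs by the series number that follows the hyphen in the title. The numbers run 1, 5, 9, 13, 17 and 21. They carry no unit in the labels and are read here as times of day in hours, which is an assumption; no light schedule is stated in the labels. Each library is a pool of hypothalamus from 3 male C57BL/6N mice. Series 1 and 3 hold mice that moved freely at 2 months of age in an early period, and series 2 and 4 hold mice of that age and period under hind limb unloading, in which the tail is raised to mimic weightlessness. Series 5 to 8 hold mice of 3 months in a late period. Series 5 (free moving) and 6 (unloaded) were kept at 85 dBA and 0.9 atm, here called noise. Series 7 (free moving) and 8 (unloaded) had 10 dBA and a normal pressure, as had all early series; these are called quiet. Noise and low pressure therefore cannot be told apart, nor can period and age.

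Daily rhythms in brain tissue come from a transcriptional loop in which CLOCK and BMAL1 (gene Arntl) drive the Per and Cry genes, whose proteins then repress them. A central pacemaker lies in the suprachiasmatic nucleus of the hypothalamus. It also times body temperature and the daily pulse of glucocorticoid hormone, and both act on genes outside the loop: glucocorticoid through its receptor, and warmth through heat shock factor. Rodents are mainly active in darkness, when glucocorticoid is high at the onset of activity.

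The values are the authors' RPKM, reads scaled by gene length and by the mapped reads of the library. Depth recovered from the smallest steps of these values was 28.3 to 55.2 M reads in the 16 libraries. RPKM are shares of a total, and the share held by the 13 mitochondrially encoded genes was uneven. It was 29.6 ± 12.5% in number 1 libraries and 30.8 ± 16.02% in number 13 libraries (SD, n = 8 each), a difference of −1.21 points that was positive in 2 of 8 series (exact paired permutation test, two-sided, p = 0.89). Without series 2 the difference was −6.67 points (exact paired permutation test, p = 0.031). In this share, series 2 and 6 stood apart: it was 48.2% at number 1 and 11.2% at number 13 in series 2, and 31.0% and 50.04% in series 6. The within-series difference of the median gene was −0.55 in series 2 and 0.38 in series 6 on the log2 scale, against −0.01 to 0.08 in the other 6 series. Series 1 stood apart in spread. In it 1019 tested genes differed at least 2-fold, against 2528 in series 2, 1172 in series 6 and 46 to 146 in the others. Its number 1 library had the lowest depth, 28.3 M reads. The hypothalamus label was met: all 12 markers of hypothalamic neurons were detected. Their summed level was 2457 to 11353 RPKM at number 1 and 1552 to 9519 RPKM at number 13. Avp and Oxt alone reached 7580 and 3227 RPKM at number 1, so the sum says little about the other markers. In bulk tissue, fewer cells of a type and less RNA per cell cannot be told apart.

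Few genes differed. With limma on log2(RPKM + 0.5) over 13685 genes, 60 passed a Benjamini-Hochberg adjusted p of 0.05, which is 0.438% of the genes tested. Of these, 50 rose (0.365%) and 10 fell (0.0731%) at number 1 relative to number 13. The median gene moved by −0.01. The difference was at least 2-fold for 7 genes, and 39 of the 60 had the same sign in all 8 series, as had 145 of all genes tested. The share of called genes that rose was 83.3%; it was 73.2% of 127 calls after quantile normalization and 52.1% of 94 calls on a table without mitochondrial genes. In the same fit, the other pairs of numbers 12 apart gave 12 calls for 9 against 21 (0.0877%) and 241 for 5 against 17 (1.76%). In the rest of the text, ± after a log2 difference is its standard error and adjusted p-values are two-sided and from limma over all 13685 genes; p-values measure the spread between these pools of mice.

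**Figure D1:**
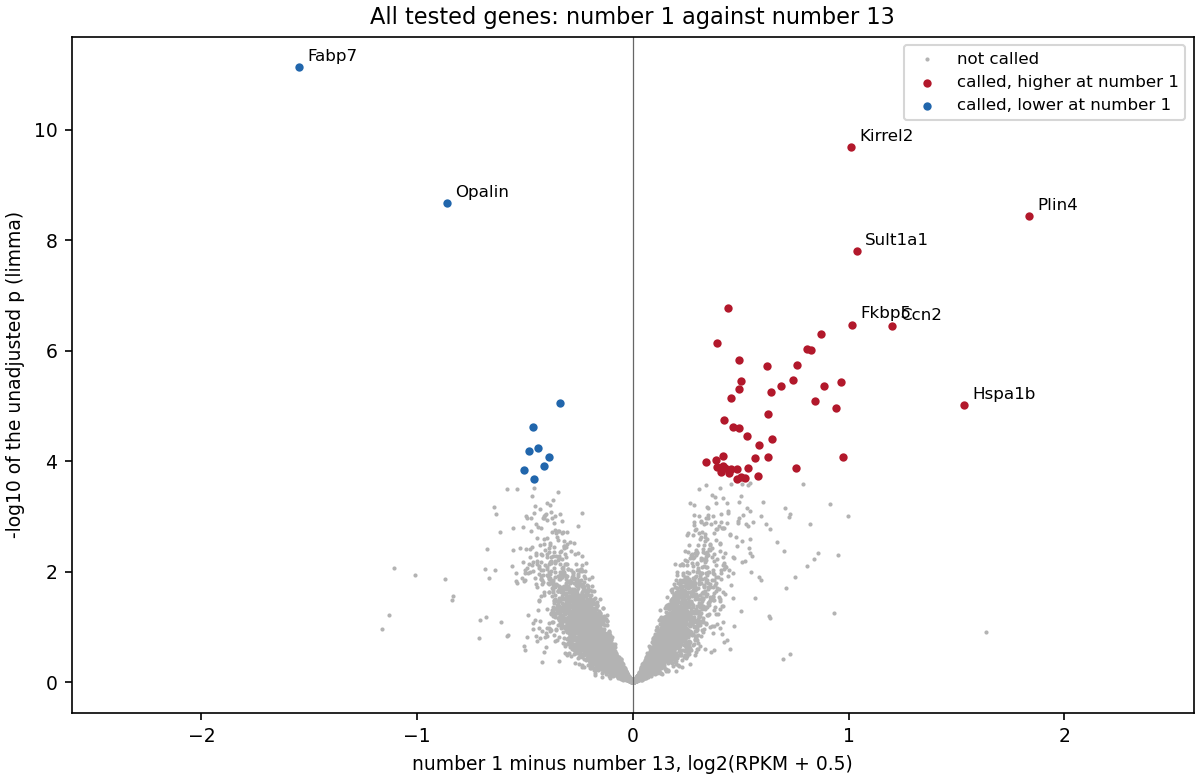
Each point is 1 of the 13685 tested genes, with the difference of number 1 minus number 13 on log2(RPKM + 0.5) across and −log10 of the unadjusted limma p upward. The 50 red points are called genes that were higher at number 1 and the 10 blue points those that were lower; Fabp7 and Plin4 lie farthest to the left and right among the called genes.

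Of 16 genes known to be induced by glucocorticoid, 4 rose and 0 fell. The median difference of the 16 was 0.52, against −0.01 over all genes, and 14 of the 16 estimates were positive. The 4 were Plin4, Sult1a1, Fkbp5 and Tsc22d3. The list was drawn up with earlier results of these data known, so its count is a description.

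Plin4, which encodes perilipin 4, a coat protein of lipid droplets (chromosome 17, 56100591 to 56109803, minus strand, GRCm38), showed the largest rise. It had 2.37, 3.87 and 9.51 RPKM in number 1 libraries (lowest, median and highest of 8), against 0.333, 0.635 and 2.50 RPKM in number 13 libraries. It was higher at number 1 in 8 of 8 series, and 6 of the number 1 libraries lay above every number 13 library. The difference was 1.84 ± 0.25 (adjusted p = 1.26e-05), about 3.57-fold.

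Fkbp5 encodes a co-chaperone of HSP90 that holds the glucocorticoid receptor in a low-affinity state (chromosome 17, 28399094 to 28517527, minus strand). It had 4.66, 7.68 and 13.2 RPKM at number 1, against 2.19, 3.26 and 6.28 RPKM at number 13. The groups overlapped, but number 1 was the higher library in 8 of 8 series, and the difference was 1.01 ± 0.17 (adjusted p = 0.000615). Sult1a1, a sulfotransferase that conjugates phenols and catecholamines, had 9.37, 20.4 and 42.0 RPKM at number 1, against 6.17, 9.40 and 15.9 RPKM at number 13. It rose by 1.04 ± 0.15 (adjusted p = 4.28e-05), again in 8 of 8 series.

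Tsc22d3, also called Gilz, a leucine zipper protein that mediates anti-inflammatory actions of glucocorticoid, had 33.3, 41.0 and 76.9 RPKM at number 1, against 17.7, 26.9 and 36.8 RPKM at number 13. In 7 of 8 number 1 libraries it exceeded every number 13 library, and the difference was 0.74 ± 0.14 (adjusted p = 0.00282). It was also the only called member of 8 other clock-controlled genes. Among the members that missed the threshold, Zbtb16 (0.91 ± 0.25, adjusted p = 0.0972) and Hif3a (0.60 ± 0.16, adjusted p = 0.0946) came closest. The metallothionein gene Mt2 (0.93 ± 0.47, adjusted p = 0.66) and the kinase gene Sgk1 (0.63 ± 0.33, adjusted p = 0.67) varied more between series. Without series 1, 2 and 6, the differences of Fkbp5, Sult1a1 and Tsc22d3 were 0.69, 0.67 and 0.46 and no longer passed (adjusted p = 0.11, 0.077 and 0.31), while Plin4 did (adjusted p = 0.0056).

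The start region of Fkbp5 is shown because, of the called genes of this group, only its window was found to hold a canonical clock E-box. Members of the group that were not called were not looked up, and not every called gene had a window. The window runs from 250 bases before to 50 bases after the RefSeq start, at chr17:28486100-28486399 on the minus strand of GRCm38.p6. Capitals mark the E-box CACGTG at base 82 of the window.
Fkbp5: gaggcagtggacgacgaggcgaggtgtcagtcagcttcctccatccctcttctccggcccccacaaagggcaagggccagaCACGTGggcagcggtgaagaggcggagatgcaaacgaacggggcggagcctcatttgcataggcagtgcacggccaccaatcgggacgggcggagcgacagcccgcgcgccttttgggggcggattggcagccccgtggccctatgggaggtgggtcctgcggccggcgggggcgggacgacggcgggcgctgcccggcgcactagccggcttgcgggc
The E-box was searched as CACGTG on both strands. It occurs in the windows of 8.09% of 27025 gene symbols, and in 3 of the 46 called genes with a window (Fkbp5, Crlf3 and Slc25a33). The core of a glucocorticoid response element, ACANNNTGT, occurs in 7.90% of symbols and in 3 of the 46 (Fam107a, Ms4a6c and Tinagl1). The Fkbp5 window holds no match to it. A match is a run of letters and not a measured site.

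**Figure D2:**
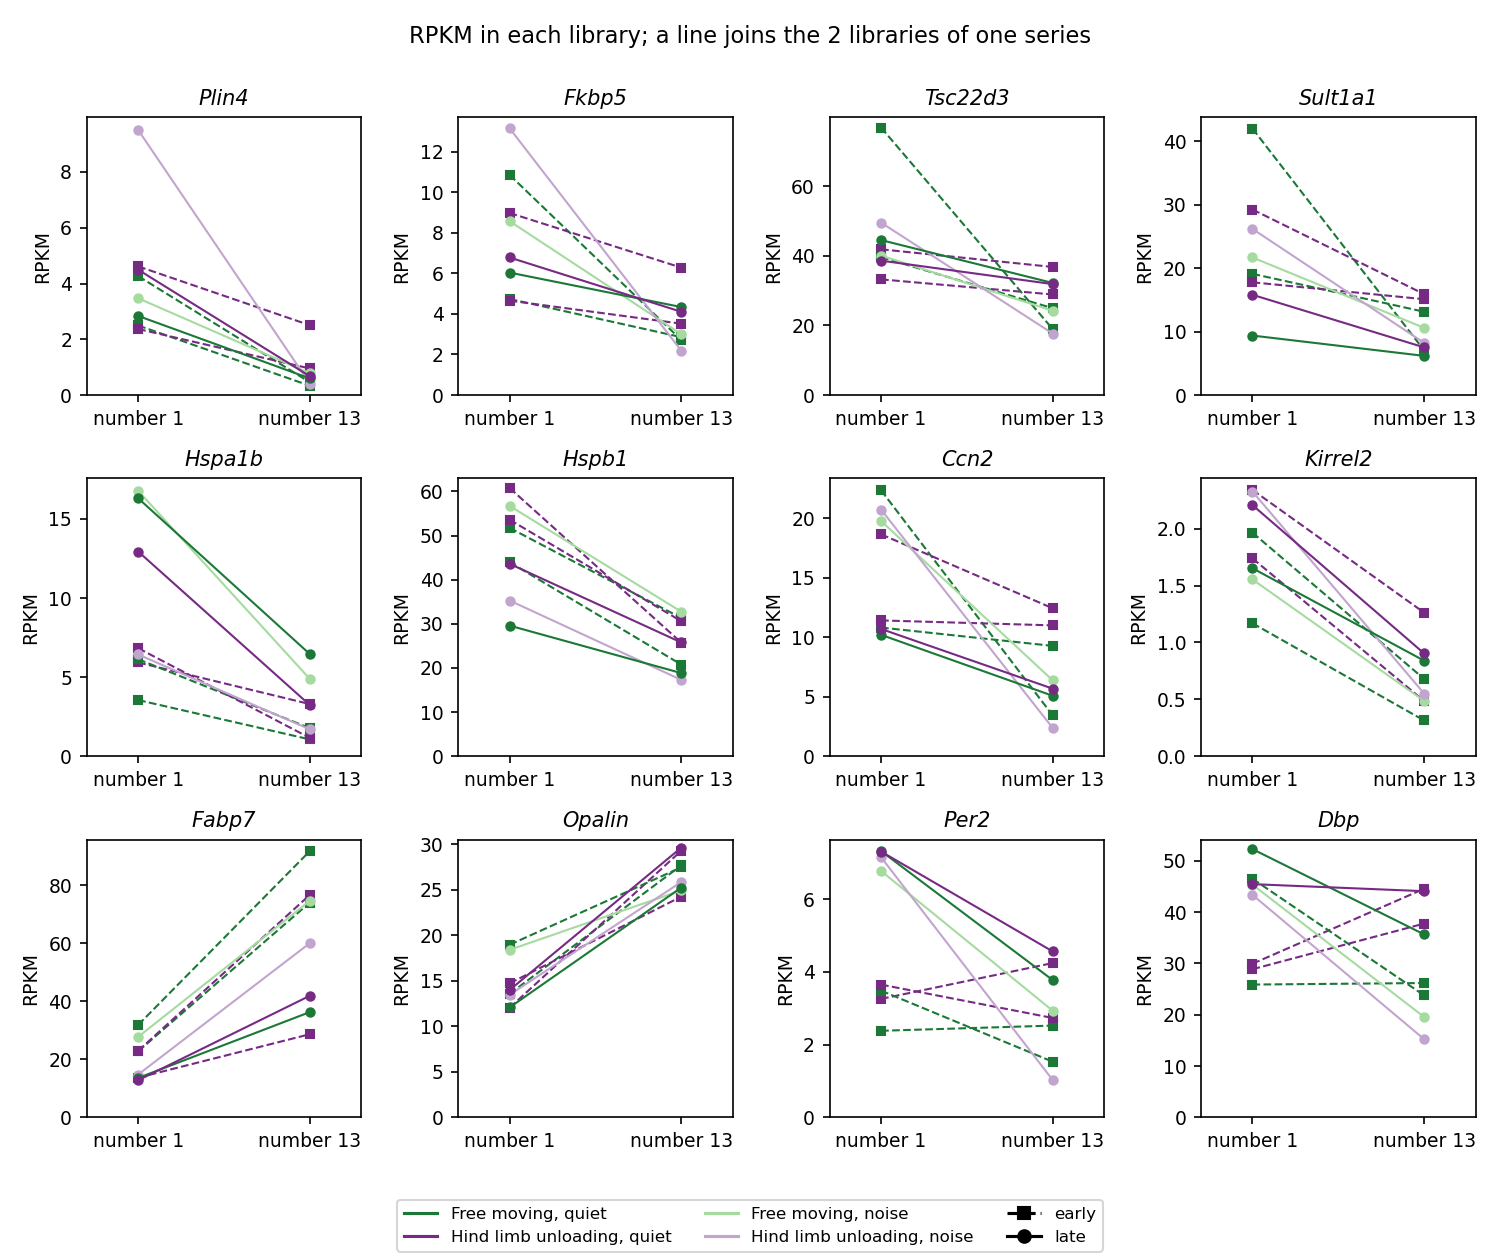
RPKM of 12 genes in each of the 16 libraries, number 1 at the left and number 13 at the right of each panel; a line joins both libraries of 1 series, colour gives activity and air, and dashes mark the early period. Lines for the first 8 genes slope down to number 13 in all 8 series and those for Fabp7 and Opalin slope up, whereas the lines of the clock genes Per2 and Dbp cross.

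Heat shock genes gave 2 rises. Of 19 cytosolic chaperones, Hspa1b and Hspb1 rose and 0 fell, and the median difference was 0.11. Hspa1b, which encodes the stress-inducible form of HSP70 (chromosome 17, 34956436 to 34959238, minus strand), had 3.55, 6.63 and 16.8 RPKM at number 1, against 1.07, 2.50 and 6.46 RPKM at number 13. It was higher at number 1 in 8 of 8 series, by 1.53 ± 0.31 (adjusted p = 0.0051). Hspa1a is a near-identical copy of it, so the authors' counting may have split their reads. Hspa1a itself had a difference of 1.00 ± 0.28 (adjusted p = 0.12).

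Hspb1, a small heat shock protein that holds unfolded proteins in solution (chromosome 5, 135887919 to 135889563, plus strand), had 29.6, 47.9 and 60.8 RPKM at number 1, against 17.3, 25.8 and 32.8 RPKM at number 13. In 7 of 8 number 1 libraries it lay above every number 13 library, and it rose by 0.87 ± 0.15 (adjusted p = 0.00076). The HSP40 gene Dnajb1 did not pass (0.62 ± 0.18, adjusted p = 0.13). Outside the list, Hspa2, an HSP70 family member, had 18.6, 20.7 and 25.7 RPKM at number 1, against 12.4, 14.8 and 16.6 RPKM at number 13. Every number 1 library was above every number 13 library, and the difference was 0.50 ± 0.09 (adjusted p = 0.00282). Serpinh1, an endoplasmic reticulum chaperone of collagen, rose by 0.46 ± 0.10 (adjusted p = 0.011). For 5 against 17, which uses other libraries, 12 of the 19 chaperones were called, against 1.76% of all genes tested. That contrast was shifted broadly: its median gene moved by 0.18, and 210 of its 241 calls were higher at number 5.

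The windows of both called chaperones are shown because heat shock factor binds repeats of GAA in alternating directions. Hspa1b lies at chr17:34959189-34959488 on the minus strand and Hspb1 at chr5:135887669-135887968 on the plus strand of GRCm38.p6. Capitals mark a pair of facing units, searched as TTCNNGAA or GAANNTTC on both strands.
Hspa1b: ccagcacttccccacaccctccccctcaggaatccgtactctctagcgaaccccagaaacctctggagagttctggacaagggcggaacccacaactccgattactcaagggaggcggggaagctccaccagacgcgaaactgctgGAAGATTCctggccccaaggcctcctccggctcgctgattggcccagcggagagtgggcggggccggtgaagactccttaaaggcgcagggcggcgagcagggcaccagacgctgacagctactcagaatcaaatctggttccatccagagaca
Hspb1: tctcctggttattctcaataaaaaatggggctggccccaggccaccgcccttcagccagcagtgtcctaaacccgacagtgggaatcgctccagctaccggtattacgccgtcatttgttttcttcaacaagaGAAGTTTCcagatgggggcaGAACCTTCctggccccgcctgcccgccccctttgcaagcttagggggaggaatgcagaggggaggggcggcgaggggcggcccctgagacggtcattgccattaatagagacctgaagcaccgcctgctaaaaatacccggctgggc
Hspa1b holds 1 match, at base 147, and Hspb1 holds 2, at bases 134 and 154. Such a pair of units occurs in the windows of 16.97% of all symbols and in 5 of the 46 called genes with a window. All 5 are rises (Hspa1b, Hspb1, Gm11627, Ms4a6c and Tinagl1), but so are 38 of the 46, and only 8 are falls.

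Fabp7 carried the strongest fall of all genes tested. It encodes brain lipid-binding protein, a fatty acid carrier of astrocytes and radial glia (chromosome 10, 57784881 to 57788450, plus strand). It had 12.8, 18.8 and 31.9 RPKM at number 1, against 28.7, 67.1 and 91.8 RPKM at number 13. In 7 of 8 number 1 libraries it lay below every number 13 library. The difference was −1.55 ± 0.17 (adjusted p = 1.03e-07), so that number 1 held 0.342 of the number 13 level, and within series it ranged between −1.99 and −1.04.

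Other lipid genes went separate ways. Of 12 genes of lipid droplets and fatty acid handling, 2 rose (Plin4 and Mfsd2a) and 1 fell (Fabp7), with a median of −0.09. Mfsd2a carries lysophosphatidylcholine with docosahexaenoic acid across the blood-brain barrier. It had 10.1, 11.9 and 17.3 RPKM at number 1, against 3.99, 6.45 and 12.8 RPKM at number 13, a rise of 0.83 ± 0.14 (adjusted p = 0.00111) that was seen in 7 of 8 series. The exception was series 2. Of 20 genes of cholesterol synthesis and uptake, 0 were called (2 had an unadjusted p below 0.05); 16 of the 20 estimates were negative, with a median of −0.08.

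Opalin, a membrane protein of myelinating oligodendrocytes, separated the groups completely (chromosome 19, 41061710 to 41077113, minus strand). It had 12.1, 13.8 and 19.0 RPKM at number 1, against 24.3, 26.7 and 29.7 RPKM at number 13. Its fall was −0.86 ± 0.11 (adjusted p = 9.77e-06). Opalin and Hspa2 were the only 2 of the 13685 genes tested whose groups did not overlap. Opalin was also the only one of 10 oligodendrocyte and myelin markers to be called, and the median of the 10 was 0.00. Their summed level was 1828 to 3677 RPKM at number 1 and 2261 to 3635 RPKM at number 13. Ugt8a, which makes the myelin lipid galactosylceramide, fell by −0.44 ± 0.10 (adjusted p = 0.022), with 9.49, 13.4 and 19.1 RPKM at number 1, against 14.0, 16.7 and 26.4 RPKM at number 13.

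The remaining falls were smaller. Id2, an inhibitor of basic helix-loop-helix factors, had 14.4, 19.3 and 24.1 RPKM at number 1, against 18.8, 24.6 and 33.6 RPKM at number 13 (−0.46 ± 0.10, adjusted p = 0.011). Its relatives moved the other way: Id1 rose by 0.49 ± 0.10 (adjusted p = 0.011) and Id3 by 0.45 ± 0.09 (adjusted p = 0.0043), each in 8 of 8 series. Shtn1, a regulator of axon growth, fell by −0.34 ± 0.07 (adjusted p = 0.0049). H1f0, a linker histone, fell by −0.39 ± 0.09 (adjusted p = 0.028), and S100a16, a calcium-binding protein, by −0.41 ± 0.10 (adjusted p = 0.036). Casq2, a calcium-storing calsequestrin, fell by −0.48 ± 0.11 (adjusted p = 0.025), Col5a3, a collagen chain, by −0.46 ± 0.11 (adjusted p = 0.048), and Ankrd29 by −0.50 ± 0.12 (adjusted p = 0.037). With each series left out in turn, Col5a3 was called in 1 of 8 fits, Ankrd29 in 2, S100a16 and H1f0 in 3 each, Ugt8a and Casq2 in 4 each and Id2 in 5. Shtn1, Opalin and Fabp7 were called in all 8.

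**Figure D3:**
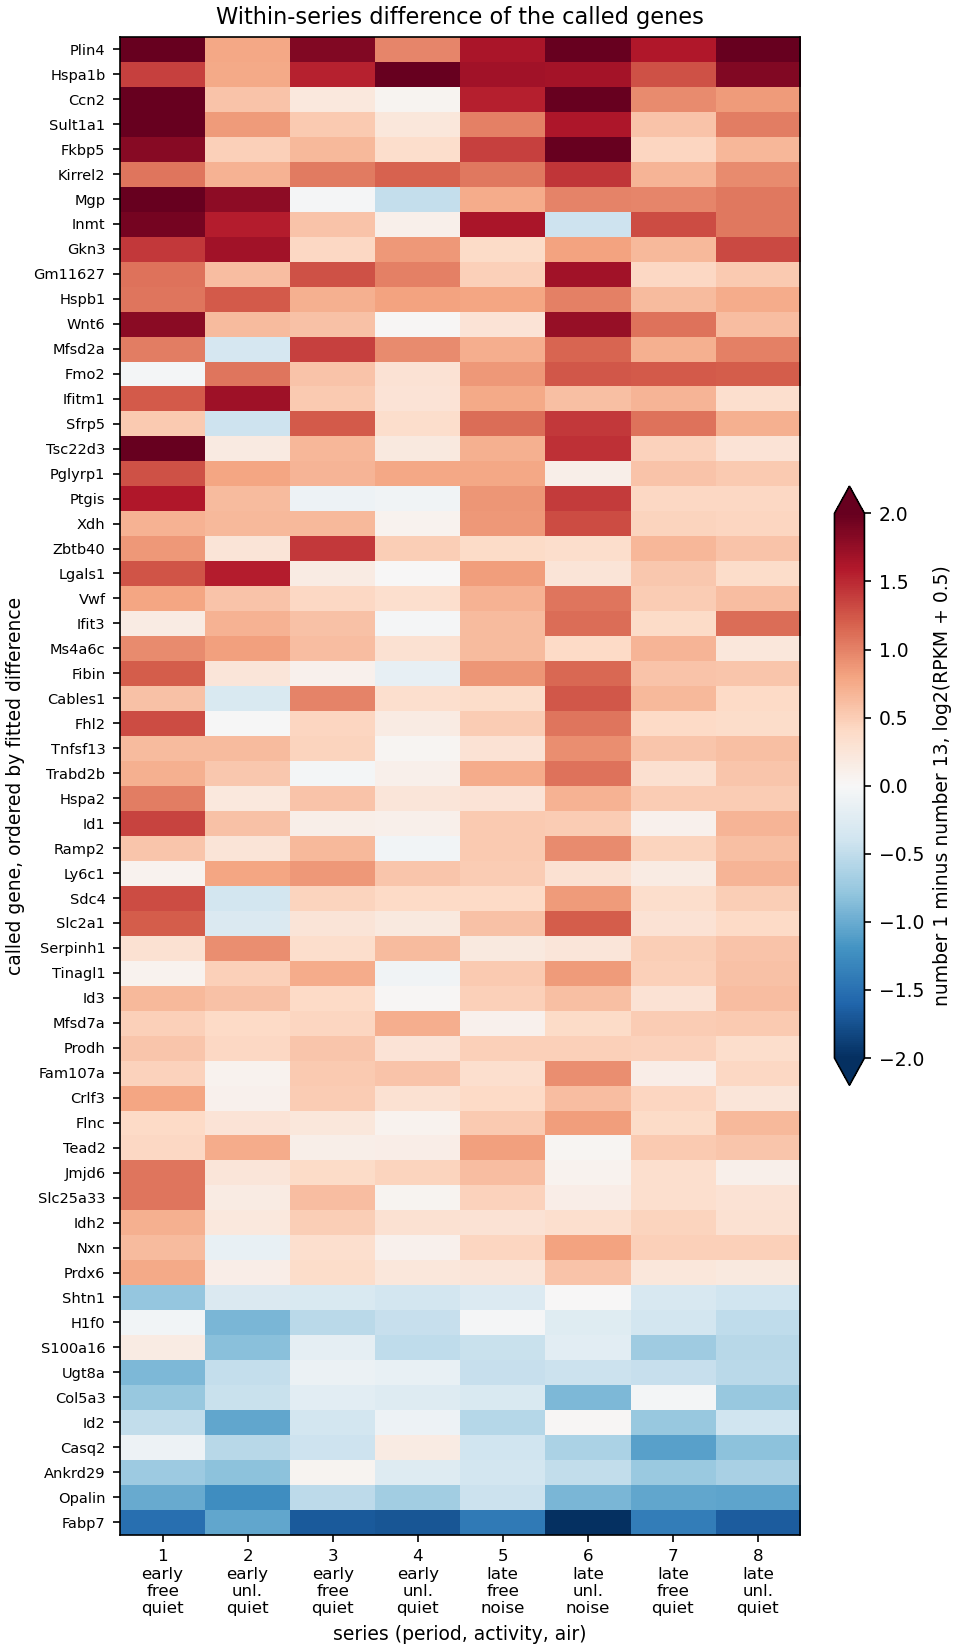
Difference of number 1 minus number 13 on log2(RPKM + 0.5) for each of the 60 called genes (rows, ordered by the fitted difference) in each of the 8 series (columns, with period, activity and air); red is higher at number 1, and the colour scale ends at 2 and −2. Fabp7 is blue and Plin4 red in every series, and the exceptions in sign lie mostly in series 2 and 4.

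Several of the called rises are known from vessels, their barrier or the tissue around them. This grouping was made after the values had been seen. Ccn2, a matrix-associated protein known as a target of YAP and TEAD factors, had 10.2, 15.03 and 22.3 RPKM at number 1, against 2.37, 6.03 and 12.4 RPKM at number 13. It was higher at number 1 in 8 of 8 series, by 1.20 ± 0.20 (adjusted p = 0.000615), with within-series differences from 0.05 to 2.88. Tead2, 1 of the TEAD factors, rose by 0.42 ± 0.10 (adjusted p = 0.028). Gkn3, known in mouse brain from arterial endothelium, had 5.85, 8.15 and 9.94 RPKM at number 1, against 2.66, 3.86 and 6.32 RPKM at number 13 (0.94 ± 0.19, adjusted p = 0.00565). Vwf, the von Willebrand factor of endothelium, rose by 0.62 ± 0.11 (adjusted p = 0.0017) in 8 of 8 series.

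Slc2a1, the glucose transporter of the blood-brain barrier, had 31.4, 40.0 and 54.4 RPKM at number 1, against 22.0, 27.2 and 41.4 RPKM at number 13 (0.48 ± 0.12, adjusted p = 0.048). It was called in 2 of 8 fits with a series left out, and it was the 1 call among 12 targets of hypoxia-inducible factor. Ly6c1, an endothelial surface protein, was the 1 call among 10 endothelial markers (0.49 ± 0.09, adjusted p = 0.0032); the median of those 10 was −0.04. Their summed level was 104 to 152 RPKM at number 1 and 101 to 135 RPKM at number 13, higher at number 1 in 5 of 8 series. Ptgis, the prostacyclin synthase, rose by 0.64 ± 0.14 (adjusted p = 0.016), Ramp2, a subunit of the adrenomedullin receptor, by 0.49 ± 0.09 (adjusted p = 0.0015), and Mgp, an inhibitor of calcification, by 0.98 ± 0.22 (adjusted p = 0.028). Mgp was higher in 6 of 8 series and was called in 2 of 8 fits with a series left out.

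The Gkn3 window is shown because it holds the 1 match to a D-box among the 46 windows of called genes. The D-box binds DBP, TEF, HLF and NFIL3. The window lies at chr6:87388886-87389185 on the minus strand of GRCm38.p6, and capitals mark the match at base 208.
Gkn3: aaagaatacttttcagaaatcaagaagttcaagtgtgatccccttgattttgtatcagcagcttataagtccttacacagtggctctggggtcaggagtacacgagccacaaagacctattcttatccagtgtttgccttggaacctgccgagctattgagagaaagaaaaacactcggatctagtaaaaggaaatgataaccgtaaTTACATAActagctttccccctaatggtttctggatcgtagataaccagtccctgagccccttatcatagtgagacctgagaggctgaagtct
The D-box was searched as TTATGTAA or TTACGTAA on both strands and occurs in 1.23% of all symbols. The cAMP response element TGACGTCA occurs in 2.03% of symbols and in 0 of the 46.

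Wnt signalling genes were also among the rises. Wnt6, a secreted ligand, had 5.32, 9.63 and 11.5 RPKM at number 1, against 2.24, 4.83 and 9.45 RPKM at number 13 (0.84 ± 0.17, adjusted p = 0.0047). Sfrp5, a secreted Wnt antagonist, rose by 0.75 ± 0.18 (adjusted p = 0.036), and Trabd2b, a protease that inactivates Wnt ligands, by 0.50 ± 0.12 (adjusted p = 0.047). Both passed in only 2 of 8 fits with a series left out, against 7 for Wnt6. These 3 genes were put together after their values had been seen.

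Kirrel2, an adhesion protein of the immunoglobulin superfamily, had the smallest p among the rises. It had 1.17, 1.85 and 2.34 RPKM at number 1, against 0.314, 0.615 and 1.26 RPKM at number 13, and 7 of 8 number 1 libraries lay above every number 13 library. Its rise was 1.01 ± 0.12 (adjusted p = 1.43e-06). Inmt, a methyltransferase that acts on tryptamine and other amines, had 1.84, 3.52 and 6.72 RPKM at number 1, against 0.622, 1.46 and 3.87 RPKM at number 13. It rose by 0.97 ± 0.18 (adjusted p = 0.0028) in 7 of 8 series. Gm11627, a gene with no name beyond its model number, rose by 0.89 ± 0.17 (adjusted p = 0.0030).

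Enzymes and carriers of metabolism made up several smaller rises. Prodh, which starts the breakdown of proline, rose by 0.44 ± 0.07 (adjusted p = 0.00039), and Idh2, the mitochondrial isocitrate dehydrogenase, by 0.39 ± 0.07 (adjusted p = 0.00099). Xdh, which makes uric acid, rose by 0.64 ± 0.12 (adjusted p = 0.0035), all 3 in 8 of 8 series. Fmo2, a flavin monooxygenase, rose by 0.81 ± 0.14 (adjusted p = 0.0011), measured on a median of about 86.2 reads a library. Prdx6, a peroxiredoxin, rose by 0.34 ± 0.08 (adjusted p = 0.032), and Slc25a33, a mitochondrial pyrimidine nucleotide carrier, by 0.39 ± 0.09 (adjusted p = 0.036). Fam107a, an actin-associated stress gene, rose by 0.43 ± 0.10 (adjusted p = 0.036), with a range of 36.9 to 71.3 RPKM at number 1 and 29.2 to 65.0 RPKM at number 13. The other 13 rises lay between 0.39 (Nxn, a nucleoredoxin) and 0.63 (Zbtb40).

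Immune genes gave scattered rises. Ifit3, an interferon-induced antiviral gene, was the 1 call among 13 interferon-stimulated genes (0.58 ± 0.13, adjusted p = 0.020), and the median of the 13 was 0.01. Ifitm1 rose by 0.76 ± 0.14 (adjusted p = 0.0017), Pglyrp1, a peptidoglycan-binding protein of neutrophils, by 0.69 ± 0.13 (adjusted p = 0.0030), and Lgals1, galectin 1, by 0.62 ± 0.14 (adjusted p = 0.028). Blood content is given beside these genes. The summed level of 8 blood cell markers was 1038 to 6255 RPKM at number 1 and 529 to 3436 RPKM at number 13, higher in 5 of 8 series (exact paired permutation test, p = 0.20, 0.52 adjusted over 14 marker lists). Of the 7 tested one by one, 0 were called with limma (5 had an unadjusted p below 0.05) and 6 were positive, with a median of 0.75. With that sum as a covariate, 49 genes were called, 33 of them among the 60.

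**Figure D4:**
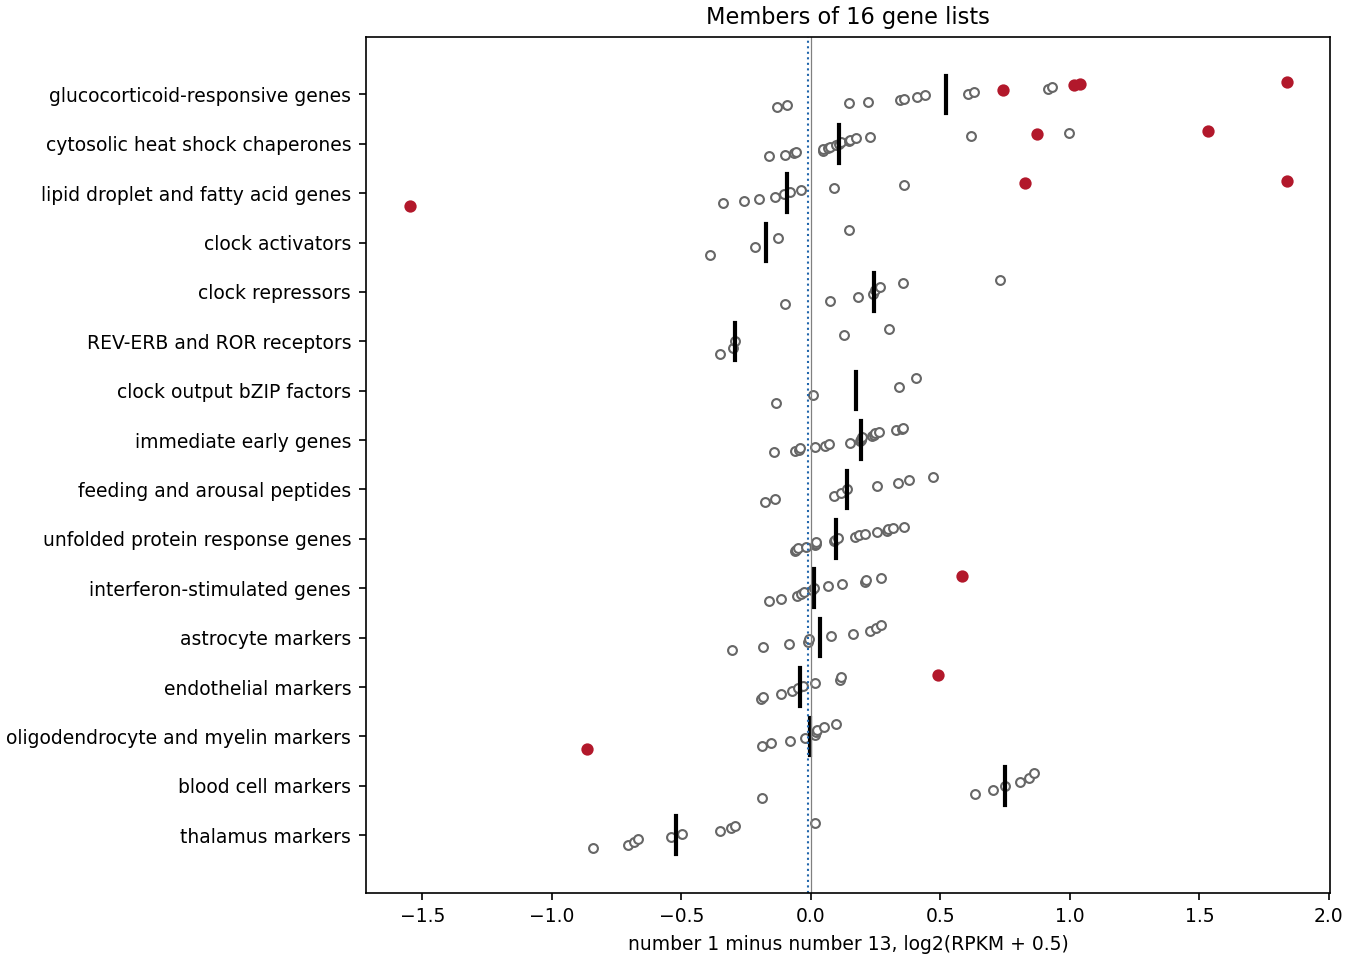
Differences of number 1 minus number 13 for the members of 16 gene lists (1 circle a gene; red where called); the black bar is the median of a list and the dotted line the median of all genes tested. Glucocorticoid-responsive genes and blood cell markers have medians of 0.52 and 0.75, and thalamus markers one of −0.52 with no call.

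None of 4 activators, 8 repressors, 5 REV-ERB and ROR receptors and 4 output bZIP factors was called with limma, although 10 of these 21 (47.6%) had an unadjusted p below 0.05, against 7.91% of all genes tested. The count called was 2 after quantile normalization (Per2 and Cry1), 3 with the mitochondrial share as a covariate (Per2, Bhlhe41 and Tef) and 7 with array weights. Per2 came closest in the fit without these steps. It had 2.38, 5.21 and 7.32 RPKM at number 1, against 1.03, 2.83 and 4.56 RPKM at number 13 (0.73 ± 0.20, adjusted p = 0.12), and was higher in 6 of 8 series. Both exceptions were early series. In the 4 late series alone its difference was 1.23 and passed (adjusted p = 0.031), against 0.23 in the 4 early series (adjusted p = 0.74). Its within-series differences were 1.08 and 2.32 in the late noise series 5 and 6, and 0.87 and 0.63 in the late quiet series 7 and 8. The interaction test set only the late quiet series against the early ones, and there the difference was 0.52 ± 0.47 (adjusted p = 0.96).

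The other repressors lay nearer to 0. Per3 had a difference of 0.35 ± 0.17 (adjusted p = 0.60), Cry1 one of 0.27 ± 0.11 (adjusted p = 0.41), Per1 one of 0.25 ± 0.16 (adjusted p = 0.81), Bhlhe41 one of 0.24 ± 0.13 (adjusted p = 0.73) and Ciart one of 0.18 ± 0.13 (adjusted p = 0.84). The activators Npas2 (−0.39 ± 0.14, adjusted p = 0.36), Arntl (−0.21 ± 0.09, adjusted p = 0.53) and Clock (−0.13 ± 0.13, adjusted p = 0.92) were negative, and Arntl2 was positive (0.15 ± 0.13, adjusted p = 0.90). Among the receptors, Rora, Rorb and Nr1d1 had −0.35 ± 0.16, −0.30 ± 0.14 and −0.29 ± 0.20 (lowest adjusted p = 0.56). Dbp, the most variable output factor, had 25.9, 44.3 and 52.2 RPKM at number 1, against 15.2, 30.9 and 44.5 RPKM at number 13 (0.41 ± 0.20, adjusted p = 0.62). Tef had 0.34 ± 0.15 (adjusted p = 0.51) and Nfil3 −0.13 ± 0.13 (adjusted p = 0.92). Estimates for Cry2, Bhlhe40, Nr1d2 and Hlf were within 1 standard error of 0.

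Of the 21 core clock genes, 8 were called for 1 or both of the other pairs of numbers. Over all genes tested, 0.0877% were called for 9 against 21 and 1.76% for 5 against 17. For 9 against 21, Dbp (−1.35 ± 0.20, adjusted p = 0.000146), Ciart (−0.96 ± 0.13), Per3 (−0.82 ± 0.17), Nr1d2 (−0.80 ± 0.14) and Arntl (0.54 ± 0.09) passed. For 5 against 17, Arntl (0.35 ± 0.09), Cry1 (0.45 ± 0.11), Ciart (−0.51 ± 0.13), Nr1d1 (−0.72 ± 0.20) and Nfil3 (0.54 ± 0.13) passed. Over the 6 numbers, Dbp averaged 39.7, 32.1, 22.8, 30.8, 49.4 and 58.6 RPKM (in the order of the numbers, n = 8 each), so that its lowest and highest means fell at 9 and 21. Per2 averaged 5.17, 5.10, 3.09, 2.92, 3.57 and 5.84 RPKM.

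**Figure D5:**
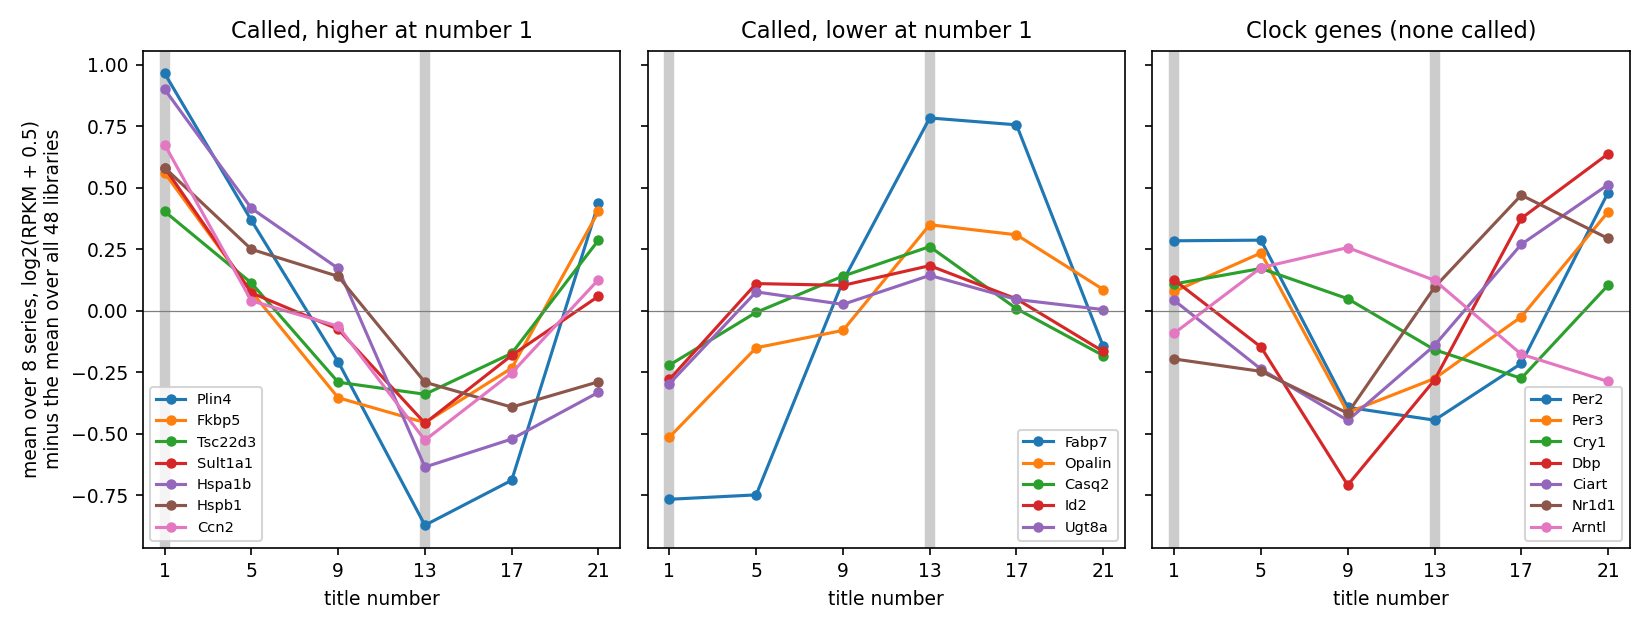
Mean over the 8 series at each title number, on log2(RPKM + 0.5) and less the mean of the gene over all 48 libraries, for called genes that were higher (left) or lower (middle) at number 1 and for clock genes (right); grey bands mark numbers 1 and 13. Plin4 is highest at 1 and lowest at 13, Fabp7 is low at 1 and 5 and high at 13 and 17, and Dbp is lowest at 9 and highest at 21.

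The called genes had turning points at the compared numbers, which their selection favours. Of the 50 rises, 46 had the highest of the 6 means at number 1 and 39 the lowest at number 13. All 10 falls were lowest at number 1 and 8 were highest at number 13. Of all 13685 genes tested, 1902 were highest at number 1 and 1406 lowest at number 13. For the opposite direction, 3805 were lowest at number 1 and 770 highest at number 13. Plin4 averaged 4.26, 2.63, 1.55, 0.839, 1.10 and 3.24 RPKM over numbers 1 to 21, and Fkbp5 averaged 7.97, 5.35, 3.92, 3.63, 4.33 and 6.98 RPKM. Fabp7 averaged 20.1, 19.5, 38.4, 60.5, 58.0 and 30.8 RPKM, so its low and high spans each covered a pair of numbers. Opalin averaged 14.7, 19.1, 19.9, 26.8, 26.1 and 22.8 RPKM.

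The libraries of the other 4 numbers were not used in the difference. The mean of numbers 21 and 5 exceeded that of numbers 9 and 17 for 46 of the 50 rises (92.0%), against 82.95% of all genes tested, so the share for the rises was near the background. It was below for 7 of the 10 falls (70.0%), against 17.05% of all genes tested. Both contrasts came from 1 fit with a shared residual spread for each gene, so genes of small spread are favoured in both. Of all genes tested, 1.76% were called for 5 against 17. Of the 60 called genes, 11 were also called for 5 against 17, which is 18.3% of the 60 and 4.56% of the 241. All 11 had the same sign there. Of the 241 calls for 5 against 17, however, 210 (87.1%) were higher at number 5, which favours a like sign for rises. They were Plin4, Hspb1, Serpinh1, Mfsd2a, Kirrel2, Gkn3, Cables1, Zbtb40, Fam107a, Fabp7 and Opalin. For 9 against 21 the number shared was 0. Fabp7 differed by −1.50 ± 0.17 for 5 against 17 (adjusted p = 2.42e-07) and by 0.26 ± 0.17 for 9 against 21 (adjusted p = 0.62).

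Hypothalamic peptides and activity genes were not called. Avp, the vasopressin gene, had 920, 3984 and 7580 RPKM at number 1, against 626, 3507 and 6294 RPKM at number 13, a difference of 0.24 ± 0.21 (adjusted p = 0.90). The wide range lay within each number. Oxt, the oxytocin gene, had 0.36 ± 0.16 (adjusted p = 0.53), Crh, the corticotropin-releasing hormone gene, −0.30 ± 0.15 (adjusted p = 0.62), and Vip, a transmitter of the suprachiasmatic nucleus, 0.35 ± 0.15 (adjusted p = 0.46). The feeding genes Agrp, Npy and Pomc had 0.47 ± 0.28, 0.26 ± 0.19 and 0.34 ± 0.29, and Hcrt and Pmch were within 1 standard error of 0. Of 19 immediate early genes, 0 were called (2 had an unadjusted p below 0.05), with a median of 0.19, and Fos was within 1 standard error of 0.

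Broad cell functions also gave no calls. All 24 cytosolic ribosomal protein genes were positive, with a median of 0.14 that was 0.06 after quantile normalization, and 0 were called. The counts were 0 of 25 for nuclear-encoded respiratory chain genes, 0 of 16 for glycolysis enzymes, 0 of 18 for the unfolded protein response (8 of which were called for 5 against 17), 0 of 14 for GABA-A receptor subunits and 0 of 15 for ionotropic glutamate receptors. Of 13 markers of the suprachiasmatic nucleus 0 were called, with a median of 0.01. In each of the lists of this paragraph so far, 0 to 4 members had an unadjusted limma p below 0.05. The highest counts were 4 of the 18 unfolded protein response genes and 3 of the 13 suprachiasmatic markers. Of all genes tested, 7.91% had such a p. As only 0.438% of all genes were called, 0 calls in a list of this size is near the background. Further lists with 0 calls were clock protein kinases and ligases, releasing hormones, feeding and arousal peptides, opioid and tachykinin precursors, late activity-regulated genes, cold-inducible RNA-binding proteins and mitochondrially encoded genes.

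Markers of other tissues did not pass. Of 10 thalamus markers 0 were called (5 had an unadjusted p below 0.05), 9 were negative and the median was −0.52; their summed level was 222 to 301 RPKM at number 1 and 238 to 393 RPKM at number 13 (exact paired permutation test, p = 0.40). Summed striatum markers were 118 to 593 RPKM at number 1 and 156 to 399 RPKM at number 13 (exact paired permutation test, p = 0.93). Summed anterior pituitary markers were 145 to 235 RPKM and 131 to 267 RPKM (exact paired permutation test, p = 0.41). The choroid plexus gene Ttr had 1.73, 5.34 and 12.7 RPKM at number 1, against 3.64, 8.75 and 86.9 RPKM at number 13 (−1.16 ± 0.71, adjusted p = 0.79). Summed astrocyte markers were 750 to 909 RPKM at number 1 and 567.7 to 823 RPKM at number 13, higher at number 1 in 8 of 8 series (exact paired permutation test, p = 0.0078, the smallest that 8 pairs allow, 0.11 adjusted over 14 marker lists). Of the 10 astrocyte markers 0 were called and 4 had an unadjusted p below 0.05. Their estimates were positive for 5 and negative for 5, with a median of 0.03, so these markers did not rise together. The part of these tissues in the calls was not tested gene by gene; with the thalamus sum as a covariate, 69 genes were called, 54 of them among the 60.

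The called genes were selected on the difference over these 8 series, which favours a like sign in each; their values by series are a description. The median difference of the 50 rises was 1.02 in series 1, 0.56 in series 2, 0.52 in series 3, 0.26 in series 4, 0.60 in series 5, 0.93 in series 6, 0.50 in series 7 and 0.56 in series 8. All 50 were higher at number 1 in series 5, 7 and 8, 49 were in series 1 and 6, 47 in series 3, 44 in series 4 and 43 in series 2. Of all genes tested, 46.8% to 61.02% were higher at number 1 in 6 of the series, against 16.7% in series 2 and 79.2% in series 6. The median of the 10 falls ran from −0.84 in series 2 to −0.31 in series 4. Plin4 differed by 1.48 in the 4 early series and 2.20 in the 4 late series, Sult1a1 by 1.03 and 1.05, Fabp7 by −1.49 and −1.61, and Opalin by −0.87 and −0.86. With each series left out in turn, 26 of the 60 genes were called in all 8 fits. Among the smaller rises given above, Prdx6 and Fam107a were called in 2 of them, Tead2, Slc25a33 and Lgals1 in 3, Ptgis and Ifit3 in 5, and Id1 and Serpinh1 in 6. The early series alone gave 0 calls with limma (1225 genes had an unadjusted p below 0.05) and the late series alone gave 33, of which 19 were among the 60.

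Whether the difference depended on condition was tested with interaction terms. Between unloaded and free-moving series 0 genes were called with limma (227 had an unadjusted p below 0.05). That lower count depended on the setting: 420 after quantile normalization and 2157 when adjusted for the mitochondrial share, again with 0 calls. Series 2 and 6, whose median genes moved in opposite directions (−0.55 and 0.38), are both unloaded. The 0 calls therefore do not show that the difference was the same in unloaded and free-moving series. Between noise and quiet late series 0 were called (313 below 0.05, 604 and 1065 in those settings). Among the 60 called genes, the difference between unloaded and free-moving series ran from −0.77 (Inmt) to 0.45 (Gkn3), and that between noise and quiet from −0.58 (Inmt) to 1.32 (Ccn2). Between late and early quiet series 3 genes were called (0.0219% of those tested), and none of them was among the 60. They were Tnnt1 (−3.64 ± 0.59, adjusted p = 0.012), Ramp3 (−3.17 ± 0.52, adjusted p = 0.012) and Tcf7l2 (−2.12 ± 0.39, adjusted p = 0.047).

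Tcf7l2 and Tnnt1 are members of the thalamus list. Tcf7l2 had 3.83 RPKM at number 1 and 25.4 RPKM at number 13 in series 7, and 4.83 and 16.7 RPKM in series 8. In the 4 early series it had 5.12 to 6.95 RPKM at number 1 and 3.91 to 8.72 RPKM at number 13. Ramp3, a receptor activity-modifying protein, had 1.98 RPKM at number 1 and 34.7 RPKM at number 13 in series 7, and 4.94 and 28.1 RPKM in series 8. Tnnt1, a troponin subunit, had 0.697 RPKM at number 1 and 11.9 RPKM at number 13 in series 7, and 0.820 and 8.72 RPKM in series 8. For all 3 genes, number 13 was thus far above number 1 in both late quiet series. In the late noise series 5 and 6 the differences were −0.81 and −0.89 for Tnnt1, 0.11 and −0.78 for Ramp3, and −0.34 and −0.68 for Tcf7l2. After quantile normalization 0 of the 3 passed.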

How the data were processed

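Each of 48 libraries (a pool of hypothalamus from 3 mice) has a column of RPKM values for 21558 genes, deposited by the authors; CASAVA 1.8 and HISAT are named in the submitters' processing notes, with no HISAT version; the build and gene models behind the values are not given in these sources. Depth was estimated from the steps of the values with GENCODE M21 exon lengths; 63.3% to 68.9% of values of up to 12 reads came out whole within 0.02 reads in the 16 libraries, so no count test was run. Genes with a mean of at least 0.5 RPKM over 48 libraries (13685) were fitted with limma 3.58.1 in R 4.3.3 on log2(RPKM + 0.5), with terms for title number and series, an intensity trend and 35 residual degrees of freedom. This scale understates folds of low genes. The number-by-condition fits had 20 residual degrees of freedom. The script was tested on simulated data.

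The members and lists were chosen with earlier results of these data known. Named genes were the 12 largest rises and up to 12 falls among calls with a mean of at least 1 RPKM and the same sign in at least 7 of 8 series, detected clock genes, up to 4 calls of each list and 11 fixed genes, of which Cry2, Bhlhe40, Nr1d2, Hlf, Fos, Hcrt and Pmch are given without values and 1 other is not reported here; other calls were named after their values were seen. The rule also returned the 5 smallest p-values of each condition test, given here only where called. Lists comprised 26 pathways and 14 marker sets. Start windows are from a RefSeq table (GRCm38.p6, matched by symbol for 46 of 60 called genes) and gene coordinates from GENCODE M21. Alternatives were the pseudocount, filter, normalization, weights, covariates and libraries used.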

Additional observations from a re-analysis of the deposited data

Results flagged for a closer look

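Of 182 groups of 8 libraries checked for a single distant value, 8 held one; chance gives about 1 in 20. Plin4 was far above the other libraries in series 6 at number 1 (9.51 RPKM) and in series 2 at number 13 (2.50 RPKM); its difference passed with either series left out. At number 1, Nfil3 was low (2.81 RPKM) and Slc25a33 high (36.8 RPKM) in series 1, and Id3 was low in series 7 (29.8 RPKM). At number 13, Col5a3 (0.942 RPKM) and Pglyrp1 (3.77 RPKM) were low in series 7, and Mt2 was low in series 6 (2.40 RPKM). The difference of number 1 minus number 13 was not the same in the late quiet series 7 and 8 as in the early series for Tnnt1 (−3.64), Ramp3 (−3.17) and Tcf7l2 (−2.12), by the interaction test; the late noise series did not enter that difference.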

How the results depend on the processing

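All 60 called genes kept their sign under the 27 alternatives, 4 of which were chosen after the data were seen (both marker covariates and the fits without series 2 and 6, or 1, 2 and 6). The count of calls, against 60 (50 rises and 10 falls), depended on the setting. It was 127 (93 and 34) after quantile normalization, 94 (49 and 45) without mitochondrial genes, 572 (261 and 311) with array weights and 201 (125 and 76) adjusted for the mitochondrial share. It was 69 (50 and 19) without a filter, and the blood covariate gave 6 falls. Subsets of the libraries gave 6 (4 and 2) with the 16 libraries alone (Plin4, Hspa1b, Kirrel2, Hspb1, Fabp7 and Opalin), 0 (0 and 0) in early series, 33 (24 and 9) in late series, 3 (2 and 1) in free-moving series, 4 (2 and 2) in unloaded series and 20 (17 and 3) in quiet series. Without series 2 and 6 it was 25 (21 and 4), and without series 1, 2 and 6 it was 9 (7 and 2). With 1 series left out it ran from 33 (without series 5 or 8) to 78, with 29 to 64 rises and 4 to 14 falls; without series 7 it was 38. Without the replicate block it was 13 (10 and 3). Libraries of 1 series deviated together in 6 of 8 series (median r 0.42, against −0.06 for other pairs) and against each other in series 2 and 6 (−0.42 each), so the series numbers were not taken to pair animals. The 3 calls between late quiet and early series became 0 after quantile normalization. The difference in mitochondrial share ran from −6.67 (without series 2, exact p = 0.031) to 1.33 points (without series 6). Signs turned for uncalled genes: Clock (0.032), Avp (−0.11) and Npy (−0.062) with the blood covariate, Arntl2 (−0.013) with array weights, Per1 (−0.043) and Dbp (−0.0025) in early series, Nr1d1 (0.22) in late series, and Ciart (−0.10) and Avp (−0.042) in unloaded series. The causes were not tested. Depth limits few calls: 3 of the 60 (Fmo2, Mfsd7a and Ms4a6c) had a median under 100 reads.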
